A study of Mus musculus with 10 samples.

Results

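Expression of 10 heat shock chaperone genes was examined in mouse RPE, the retinal pigment epithelium, a single layer of cells that underlies the photoreceptors. The genes were *Hspa1a*, *Hspa1b*, *Hspa8*, *Hsph1*, *Hsp90aa1*, *Hspb1*, *Hspb8*, *Cryab*, *Dnajb1* and *Bag3*, chosen by name as heat shock genes, out of 47729 genes in the count table. RNA came from 5 wild-type CD1 mice, an outbred strain, at postnatal day 40 (P40). In each mouse 1 eye had been injected with AAV-Best1-GFP, and is called the GFP control eye, and the other eye with AAV-Best1-Nrf2 together with AAV-Best1-GFP, and is called the Nrf2 eye. AAV is an adeno-associated virus that carries a gene into cells, the human Best1 promoter restricts its expression to the RPE, and the Nrf2 vector holds the human coding sequence. All 10 eyes therefore carried GFP, and the Nrf2 eyes had an additional vector with no eye given an equal amount of another one, so effects of Nrf2 and of the added vector cannot be told apart. GFP was checked in each eye after its removal, the retina was taken off, and the cleaned eyecup was put into the reagent RNA Protect. RNA purified from the supernatant was amplified with a low-input kit. The comparison asks how RNA of the chaperone genes differs between the eyes of a mouse when Nrf2, a transcription factor that induces genes against oxidative stress, is overexpressed in the RPE.

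Heat shock chaperones bind unfolded proteins. HSP70 proteins hold and refold clients in cycles of ATP use, J-domain proteins bring the clients, nucleotide exchange factors release them, HSP90 finishes the folding of kinases and receptors, and small heat shock proteins keep unfolded chains soluble without ATP. Most stress-inducible members are switched on by the transcription factor HSF1, which binds inverted repeats of the bases nGAAn in promoters, whereas NRF2 binds the antioxidant response element, and the RPE is a tissue of high oxidative load that digests photoreceptor membrane every day. *Hspa1a* and *Hspa1b* are near-identical stress-inducible HSP70 genes lying beside each other, and *Hspa8* is the constitutive HSP70.

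The promoters show which members carry recognisable heat shock repeats, and how alike the HSP70 copies are. The sequences are from RefSeq on GRCm38.p6, where 7 of the 10 members had a promoter window from 250 bases before to 50 bases after a transcription start. The bases before the start are printed for the 4 members whose levels moved together across libraries, 5′ to 3′ on the strand of the gene. Capitals mark each match to GAANNTTC, a pair of heat shock units that reads the same on both strands, and in *Dnajb1*, whose windows hold neither heat shock pair, a match on the reverse strand to the antioxidant response element TGACNNNGC. They lie at chr17:34972157-34972406 on the minus strand for *Hspa1a*, at chr17:34959239-34959488 on the minus strand for *Hspa1b*, at chr5:135887669-135887918 on the plus strand for *Hspb1* and at chr8:83607925-83608174 on the plus strand for *Dnajb1*.
Hspa1a: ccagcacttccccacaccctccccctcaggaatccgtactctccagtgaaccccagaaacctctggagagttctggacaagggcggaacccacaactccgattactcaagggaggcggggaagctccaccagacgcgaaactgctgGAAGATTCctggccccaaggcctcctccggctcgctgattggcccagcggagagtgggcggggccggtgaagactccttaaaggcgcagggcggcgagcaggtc
Hspa1b: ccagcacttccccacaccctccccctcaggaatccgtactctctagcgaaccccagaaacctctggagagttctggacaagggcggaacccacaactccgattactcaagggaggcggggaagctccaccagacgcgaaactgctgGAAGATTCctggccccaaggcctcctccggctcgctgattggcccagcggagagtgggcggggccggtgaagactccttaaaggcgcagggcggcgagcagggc
Hspb1: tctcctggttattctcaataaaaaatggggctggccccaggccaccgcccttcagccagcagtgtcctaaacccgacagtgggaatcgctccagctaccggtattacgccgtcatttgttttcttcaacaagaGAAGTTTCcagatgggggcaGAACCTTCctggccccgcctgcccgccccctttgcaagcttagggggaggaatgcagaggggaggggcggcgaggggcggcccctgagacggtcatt
Dnajb1: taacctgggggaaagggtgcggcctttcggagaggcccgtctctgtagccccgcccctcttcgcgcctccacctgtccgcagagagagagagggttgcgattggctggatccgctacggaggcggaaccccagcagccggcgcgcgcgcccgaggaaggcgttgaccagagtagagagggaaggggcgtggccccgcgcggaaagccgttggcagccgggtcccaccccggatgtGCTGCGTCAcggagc
The windows of *Hspa1a* and *Hspa1b* were identical at 296 of 300 bases (98.7%), and each holds the repeat from -104 to -97, counted from the start. *Hspb1* holds the repeat at -117 to -110 and again at -97 to -90. *Hspb8* holds GAANNTTC at 3 to 10 and *Bag3* at 43 to 50, both after the start.

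*Hsph1*, the gene of an HSP110 protein, is shown because its windows match both kinds of element. In the stretch at chr5:149636377-149636506 on the minus strand, which ends 41 bases before its second start, capitals mark TGACNNNGC, read here on the reverse strand.
Hsph1: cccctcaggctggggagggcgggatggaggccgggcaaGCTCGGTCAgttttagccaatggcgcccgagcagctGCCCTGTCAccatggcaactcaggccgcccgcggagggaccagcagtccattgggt
These matches lie at -132 to -124 and -96 to -88, and nearer that start the window holds TTCNNGAA at -33 to -26 and at 37 to 44, the latter overlapping GAANNTTC at 42 to 49, which gives 3 alternating units. *Dnajb1* holds TGACNNNGC at -15 to -7. GAANNTTC or TTCNNGAA was present in 6 of the 7 members with a window, against 15.1% of 32851 promoter windows, and TGACNNNGC on either strand in 2 of 7, against 12.4%. A run of 3 or more alternating units was present in 0.603% of all windows. A match describes letters in the window, and binding was not measured.

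Libraries held 12298404 to 27310638 counts. *Nfe2l2*, the mouse gene of NRF2, rose from 88.7 ± 12.7 to 353 ± 53.6 CPM (counts per 1000000 counts of the library, mean ± SD, n = 5 eyes), which on the log2 scale is 1.97 (SE 0.11, edgeR adjusted p = 0.000299), higher in 5 of 5 mice; whether reads of the human vector were counted there was not tested. Of 29 tested NRF2 targets, 25 rose, with a median log2 fold change of 1.77. The summed level of 12 RPE markers was 23610 to 45840 CPM in GFP control and 12580 to 31260 CPM in Nrf2 eyes, with 6 of the 12 lower by the test, and that of 13 macrophage and microglia markers was 178 to 302 against 483 to 2451 CPM, with 12 of the 13 higher. Summed rod markers reached 22240 CPM in the GFP control eye and 8766 CPM in the Nrf2 eye of mouse 2. Summed lens markers reached 2252 CPM in the Nrf2 eye of mouse 3, and summed muscle markers 720, 486 and 1115 CPM in the Nrf2 eyes of mice 3, 4 and 5. No list had a marker at 0 in every library. The part of these other cells in the results on chaperones was not tested except where a value is given with it. Fewer cells of a type and less RNA per cell cannot be told apart in these bulk samples.

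None of the 10 chaperone genes passed edgeR's quasi-likelihood test at an adjusted p of 0.05, where 6.33% of the 16362 tested genes did. At an unadjusted p under 0.05, where 19.1% of tested genes stood, there were 4 members, *Hspb8*, *Hsph1* and *Bag3* with higher and *Hsp90aa1* with lower means in Nrf2 eyes. At its own adjusted p of 0.05 DESeq2 called 2 members, *Hspb8* and *Hsp90aa1*, where it called 9.25% of the 19592 genes it gave an adjusted p. The groups overlapped in CPM for all 10 members, whereas 6.28% of tested genes had groups that did not overlap. The median log2 fold change of the members was -0.03, with 5 above 0, beside -0.01 over all tested genes. Ratios within a mouse and counts of mice use log2 CPM with TMM scaling factors, so their sign can differ from that of the printed CPM where the eyes are nearly level. *Hsph1* was the 1 member higher in 5 of 5 mice and *Hsp90aa1* the 1 member lower in 5 of 5, against 9.23% and 10.9% of tested genes. A p that misses the threshold does not show that the eyes were alike, and the median size of the log2 fold change, whatever its sign, was 0.18 for the members and 0.20 for all tested genes.

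**Figure D1:**
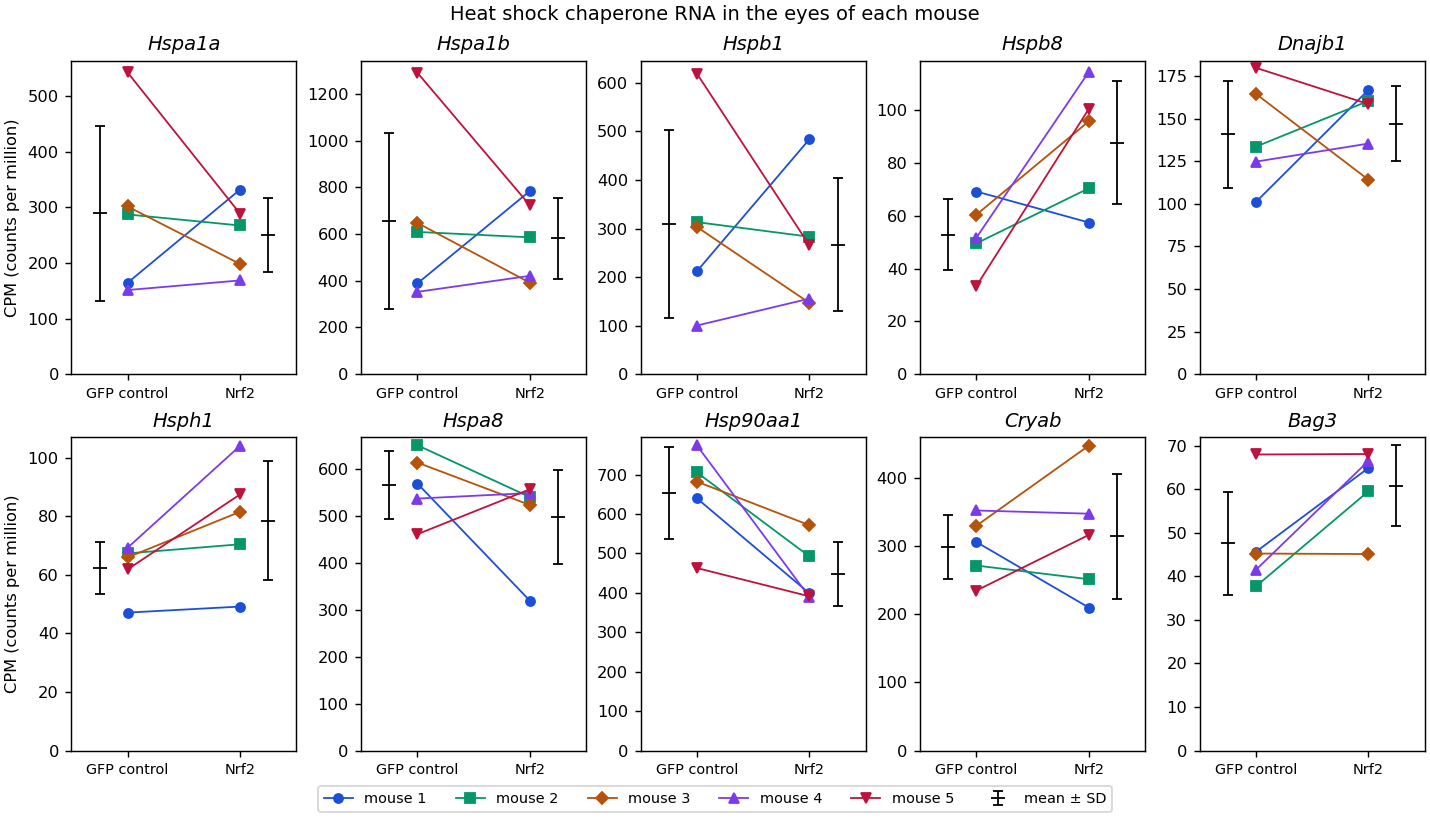
RNA level of each chaperone gene in CPM (y axis, from 0) in the GFP control and Nrf2 eye of each mouse, with a line joining the eyes of a mouse and black bars for the mean ± SD of 5 eyes. Each *Hsp90aa1* line ends lower in the Nrf2 eye and each *Hsph1* line higher, though in mouse 1 *Hsph1* rises only from 47.1 to 49.1 CPM. The lines of *Hspa1a*, *Hspa1b* and *Hspb1* cross, with mouse 1 going up and mouse 5 down.

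Among the HSP70 genes, *Hspa1a* (ENSMUSG00000091971, chr17:34969190-34972156, minus strand) stood at 164, 287, 302, 151 and 543 CPM in the GFP control eyes of mice 1 to 5. The Nrf2 eyes of the same mice had 332, 267, 198, 169 and 289 CPM. The highest and the lowest library were both controls, of mice 5 and 4, and all 5 Nrf2 values lay between them. The means were 289 ± 157 and 251 ± 66.7 CPM, and the log2 fold change was -0.11 (SE 0.35, edgeR adjusted p = 0.897). The Nrf2 eye was higher in 2 of 5 mice, and the log2 ratio within a mouse ran from -1 in mouse 5 to 1.09 in mouse 1.

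*Hspa1b* (ENSMUSG00000090877, chr17:34956436-34959238, minus strand), the other inducible HSP70, had 389, 609.5, 648, 353 and 1291 CPM in GFP control eyes. Its Nrf2 eyes had 785, 586, 392, 421 and 723 CPM. It followed *Hspa1a* library by library, with the GFP control eye of mouse 5 the highest and that of mouse 4 the lowest. The log2 fold change was -0.09 (SE 0.36, adjusted p = 0.922 by edgeR), and again 2 of 5 mice were higher in the Nrf2 eye.

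The HSP70 copies share sequence, so their split is uncertain. Of all 50-base windows in the annotated transcripts of *Hspa1a*, 60.3% occur in another gene too and 58.8% in *Hspa1b*. *Hspa1a* took 28.5% to 33.6% of the reads of the pair in the 10 libraries, a narrow span beside the 3.64-fold range of the sum. Added together, the pair had 553.5, 897, 949.5, 504 and 1834 CPM in GFP control and 1117, 854, 589.8, 590 and 1012 CPM in Nrf2 eyes. The sum overlapped between the groups and was higher in the Nrf2 eye of 2 of 5 mice, with a log2 fold change of -0.10 (SE 0.36, edgeR adjusted p = 0.916). Its sign rested on single mice, since leaving out mouse 3 gave 0.11 and leaving out mouse 5 gave 0.12.

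*Hspa8* (ENSMUSG00000015656, chr9:40800984-40810087, plus strand), the constitutive HSP70 that also strips clathrin from vesicles, had 569, 651, 614, 537 and 461 CPM in GFP control eyes. Its Nrf2 eyes had 319, 540.5, 524, 549 and 557 CPM. The Nrf2 eye of mouse 1 stood below the rest, and the other 9 libraries lay within 461 to 651 CPM. Its log2 fold change was -0.22 (SE 0.16, edgeR adjusted p = 0.518), and without mouse 1 it was -0.05. On the scaled ratios the Nrf2 eye was lower in 4 of 5 mice, with mouse 4 at -0.03, although the CPM of mouse 4 was slightly higher in that eye. Pseudogenes share its sequence, with 38.6% of its 50-base windows found in other genes and 34.6% in *Gm15459*.

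*Hsph1* (ENSMUSG00000029657, chr5:149614287-149636376, minus strand) encodes HSP105, of the HSP110 family, which acts as a nucleotide exchange factor for HSP70. It had 47.1, 67.3, 65.9, 69.2 and 61.8 CPM in GFP control eyes of mice 1 to 5. The Nrf2 eyes had 49.1, 70.4, 81.5, 104 and 87.4 CPM. The groups overlapped through the Nrf2 eye of mouse 1, which lay below 4 of the 5 controls, and the Nrf2 eyes of mice 2 to 5 were above all 5 controls. The log2 fold change was 0.29 (SE 0.09, edgeR adjusted p = 0.164), a fold of 1.22, and ratios within a mouse ran from 0.05 to 0.52. The Nrf2 eyes of mice 3, 4 and 5, highest in *Hsph1*, also had the most muscle marker RNA. With muscle markers as a covariate the log2 fold change of *Hsph1* was 0.27 (edgeR adjusted p = 0.125). None of its 50-base windows occurs in another annotated gene.

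*Hsp90aa1* (ENSMUSG00000021270, chr12:110690605-110702728, minus strand), the stress-inducible cytosolic HSP90, was the member nearest the threshold. GFP control eyes had 639.5, 705, 682, 774 and 463 CPM. Nrf2 eyes had 399, 492, 571, 389 and 391 CPM. The Nrf2 eye was lower in every mouse, yet the groups overlapped through the GFP control eye of mouse 5, which lay below 2 Nrf2 eyes. The means were 653 ± 117 and 448.5 ± 81.1 CPM, a fold of 0.682 or, on the log2 scale, -0.55 (SE 0.14, edgeR adjusted p = 0.0698). The adjusted p was under 0.05 with DESeq2 (-0.55, adjusted p = 0.00508) and with no filter on low counts (adjusted p = 0.0493), and over the 13 alternatives the log2 fold change ran from -0.61 to -0.33, the latter with immediate early genes as a covariate, and the adjusted p from 0.00508 to 0.876. Of its 50-base windows, 47.5% occur in other genes and 41.8% in *Gm12346*. The summed RPE markers were also lower in the Nrf2 eye of 5 of 5 mice, and their part in this difference was not tested.

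Among the small heat shock genes, *Hspb1* (ENSMUSG00000004951, chr5:135887919-135889563, plus strand), whose product HSP27 binds unfolded chains and actin, had 212, 313, 303, 100.2 and 619 CPM in GFP control eyes. Nrf2 eyes had 484, 283, 147, 156 and 265 CPM. It was the most variable member, with a 6.18-fold range over the libraries, and its lowest and highest libraries were the controls of mice 4 and 5. The log2 fold change was -0.14 (SE 0.48, edgeR adjusted p = 0.907), and ratios within a mouse ran from -1.31 in mouse 5 to 1.27 in mouse 1. Its sign rested on single mice, with 0.158 without mouse 3, 0.165 without mouse 5 and -0.454 without mouse 1. Of its 50-base windows, 48.8% occur in the pseudogene *Hsp25-ps1*.

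*Hspb8* (ENSMUSG00000041548, chr5:116408491-116422864, minus strand) encodes HSP22, which works with BAG3 in chaperone-assisted autophagy. GFP control eyes had 69.2, 49.5, 60.4, 51.7 and 33.4 CPM. Nrf2 eyes had 57.4, 70.4, 95.8, 114.5 and 100.5 CPM. The Nrf2 eyes of mice 2 to 5 were above all 5 controls, and that of mouse 1 was below its own control. The means were 52.8 ± 13.4 and 87.7 ± 23.3 CPM, a fold of 1.64 or, on the log2 scale, 0.71 (SE 0.28, edgeR adjusted p = 0.137). It passed with DESeq2 (0.72, adjusted p = 0.0321), with muscle markers as a covariate (0.62, adjusted p = 0.0275) and without mouse 1 (0.97, adjusted p = 0.037), and over the 13 alternatives the log2 fold change ran from 0.52 to 0.97 and the adjusted p from 0.0275 to 0.905.

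*Hspb8* is abundant in muscle, so the muscle marker list is given beside it. The 15 markers summed to 178, 96.2, 164, 202.5 and 114 CPM in GFP control eyes of mice 1 to 5. In Nrf2 eyes they summed to 16.3, 38.7, 720, 486 and 1115 CPM. The Nrf2 eyes of mice 3, 4 and 5, which had the most muscle marker RNA, also had the most *Hspb8*, and in mouse 2 *Hspb8* was higher in the Nrf2 eye while the markers were lower. With the muscle markers in the model the *Hspb8* log2 fold change was 0.62 beside 0.71 without them.

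*Cryab* (ENSMUSG00000032060, chr9:50751325-50756636, plus strand) encodes alpha-B-crystallin, a small heat shock protein of lens, muscle and RPE. GFP control eyes had 306, 271, 329.8, 352 and 235 CPM. Nrf2 eyes had 209.7, 251, 447, 347 and 316 CPM. The Nrf2 group held both the lowest library, of mouse 1, and the highest, of mouse 3. The log2 fold change was 0.02 (SE 0.17, edgeR adjusted p = 0.965). The high Nrf2 eye of mouse 3 was the library with 2252 CPM of lens markers and 993 CPM of *Cryaa*, the lens alpha-A-crystallin gene, which ran from 0.119 to 99.1 CPM in the other 9 libraries. That eye of mouse 3 also held 720 CPM of summed muscle markers. Without mouse 3 the log2 fold change of *Cryab* was -0.03, without mouse 5 it was -0.06 and without mouse 1 it was 0.18. With muscle markers as a covariate it was -0.03. *Hspb2* overlaps *Cryab* on the opposite strand with 1102 counts in all libraries against 59590 for *Cryab*.

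Of the co-chaperones, *Dnajb1* (ENSMUSG00000005483, chr8:83608193-83612653, plus strand), the HSP40 that delivers clients to HSP70, had 101, 134, 165, 125 and 179.9 CPM in GFP control eyes. Nrf2 eyes had 167, 160.4, 114, 135 and 159 CPM. All Nrf2 values lay within the range of the controls. The log2 fold change was 0.06 (SE 0.22, edgeR adjusted p = 0.917), with 3 of 5 mice higher, and was -0.08 without mouse 1.

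*Bag3* (ENSMUSG00000030847, chr7:128523616-128546981, plus strand), which links HSP70 to HSPB8 and to autophagy, had 45.7, 37.7, 45.3, 41.5 and 68.0 CPM in GFP control eyes. Nrf2 eyes had 64.9, 59.5, 45.1, 66.5 and 68.1 CPM. The Nrf2 eyes of mice 1, 2 and 4 were above their controls, whereas the eyes of mice 3 and 5 were nearly level, and the control of mouse 5 lay with the high Nrf2 eyes. Its fold was 1.28, or 0.35 on the log2 scale (SE 0.16, edgeR adjusted p = 0.237), with 4 of 5 mice higher, and with immediate early genes as a covariate it was 0.13.

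**Figure D2:**
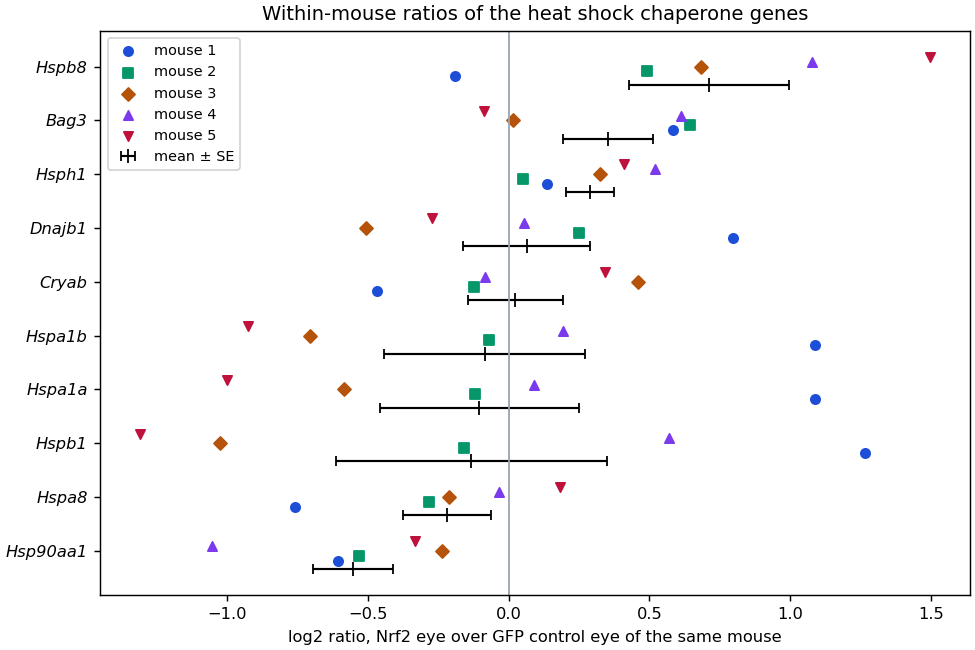
Log2 ratio of scaled CPM in the Nrf2 over the GFP control eye of the same mouse (x axis) for each chaperone gene (y axis, in order of the mean), with a symbol per mouse and black bars for the mean ± SE of 5 mice. The 5 *Hsp90aa1* ratios lie below 0 and the 5 *Hsph1* ratios above it, and *Hspb1* has the widest span, from -1.31 to 1.27.

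The direction of the scaled ratios differed between mice. In mouse 1 the Nrf2 eye was higher for 6 of the 10 members, with a median log2 ratio of 0.36, and in mouse 4 for 7, with a median of 0.14. In mice 2, 3 and 5 it was higher for 4 members each, with medians of -0.09, -0.22 and -0.18. Over all tested genes the medians of the 5 mice lay between -0.06 and 0.03.

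Levels were compared between members per kilobase of annotated exon, as means over the 10 libraries. *Hspb1* had 280 ± 154 CPM per kilobase (SD), *Hspa1b* 221 ± 100 and *Cryab* 207 ± 46.8. *Hsp90aa1* followed with 140 ± 36.5, *Hspa8* with 124 ± 21 and *Hspa1a* with 91.1 ± 39.0. *Dnajb1* had 44.9 ± 8.05, *Hspb8* 36.0 ± 13.2, *Bag3* 21.2 ± 4.78 and *Hsph1* 9.69 ± 2.36. The order was the same in 10 of 10 libraries for *Cryab* above *Hsp90aa1*, *Hspa1a* above *Dnajb1* and *Bag3* above *Hsph1*. The length counts every annotated exon of a gene, with 7266 bases for *Hsph1* and 2562 for *Bag3*. Without division by length, mean CPM was 70.4 for *Hsph1* and 54.2 for *Bag3*, and 551 for *Hsp90aa1* and 307 for *Cryab*, so the order of these pairs rests on the length used. Other neighbours changed places, with *Hspa1b* above *Cryab* in 6 of 10 libraries, *Dnajb1* above *Hspb8* in 6 and *Hsp90aa1* above *Hspa8* in 7, and the means of these pairs differed by less than the larger of their SDs. *Hspb1* was above *Hspa1b* in 8 of 10 libraries, *Hspa8* above *Hspa1a* in 8 and *Hspb8* above *Bag3* in 9. The order of some neighbours turned between the groups. *Hsp90aa1* had 166 and *Hspa8* 132 CPM per kilobase in GFP control eyes, against 114 and 116 in Nrf2 eyes, and *Hspa1b* had 235 and *Cryab* 202 in GFP control eyes, against 207 and 213 in Nrf2 eyes. The levels of *Hspa1a*, *Hspa1b*, *Hspb1*, *Hspa8* and *Hsp90aa1* are uncertain, since their transcripts share sequence with other genes.

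The members did not vary as a single block. The 10 libraries come from 5 mice, and all genes of a library are scaled by the same total. Over these libraries, Pearson's r of log2 CPM was 0.98 for *Hspa1a* with *Hspa1b*, 0.93 for *Hspa1b* with *Hspb1* and 0.86 for *Hspa1b* with *Dnajb1*. Of the 50-base windows of *Hspa1a*, 58.8% occur in *Hspa1b*, and how far shared reads set the r of 0.98 was not tested. All 4 of these genes were high in the GFP control eye of mouse 5 and low in that of mouse 4 or mouse 1. *Hspb8* and *Hsph1* went together less closely (r = 0.59), as did *Hspa8* and *Hsp90aa1* (r = 0.56). *Hspb1* and *Cryab* ran opposite (r = -0.75), and so did *Hsp90aa1* and *Bag3* (r = -0.90). These are descriptions over 10 libraries, with no test.

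**Figure D3:**
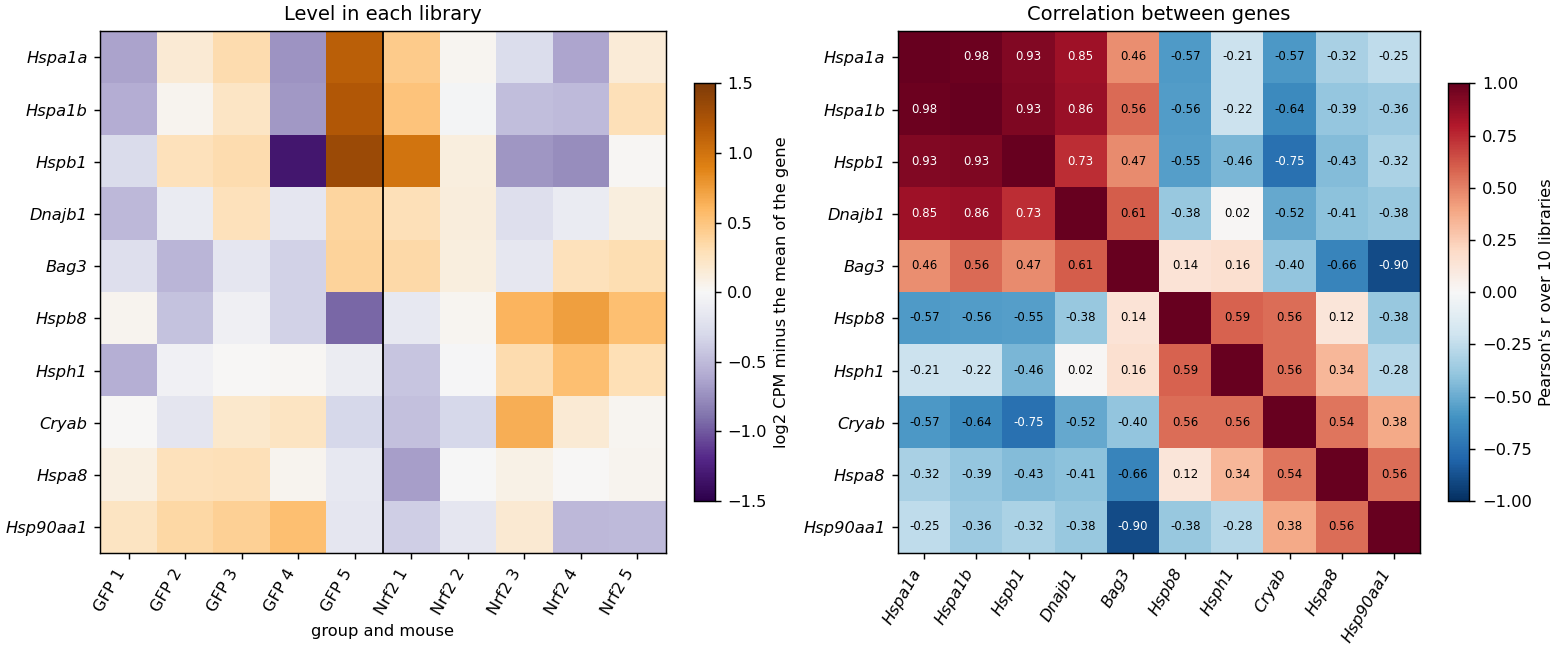
Left, log2 CPM of each chaperone gene (rows) in each library (columns, group and mouse, with a line between the groups) minus the mean of the gene, as colour from purple (low) to orange (high). Right, Pearson's r of log2 CPM between genes over the 10 libraries, where *Hspa1a*, *Hspa1b*, *Hspb1* and *Dnajb1* form a block of r from 0.73 to 0.98. The highest r is that of *Hspa1a* with *Hspa1b*, which share sequence.

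Immediate early genes, which respond within minutes to stimuli that include dissection, are given beside this block. Their 15 members summed to 720.5, 899, 963, 434.5 and 1268 CPM in GFP control eyes of mice 1 to 5. In Nrf2 eyes they summed to 1131, 1404, 758, 699 and 1247 CPM. Among control eyes this sum was highest in mouse 5 and lowest in mouse 4, as were *Hspa1a*, *Hspa1b* and *Hspb1*. Among Nrf2 eyes it was highest in mouse 2, whereas those 3 genes were highest in mouse 1. All 15 had fitted log2 fold changes above 0, with a median of 0.44, though 0 of them passed edgeR's test. With them as a covariate the log2 fold change was -0.22 for *Hspa1a*, -0.29 for *Hspa1b*, -0.51 for *Hspb1* and -0.15 for *Dnajb1*, with none past the threshold. That fit called 88 of the 16362 tested genes, beside 1036 without the covariate, so the absence of calls says little about these genes.

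The genes most like the summed *Hspa1a* and *Hspa1b* over the 10 libraries were *Cav2* (r = 0.98, log2 fold change -0.16), *Akr1b7* (r = 0.98, -0.02) and *Plp2* (r = 0.98, -0.04). Those most like *Hsp90aa1* were *Clcn3* (r = 0.98, log2 fold change -0.36), *Vldlr* (r = 0.98, -0.74) and *Gzmm* (r = 0.97, -1.90). Those most like *Cryab* were *Aldh1l1*, *Clcn7* and *Sptbn1*, each with r = 0.96 and log2 fold changes of -0.01, -0.02 and 0.05. The likeness was taken over the libraries of both groups, so a difference between the eyes like that of the member follows from the choice.

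Beyond the 10 members, 98 other chaperone genes and partners were listed by role, of which 97 were in the table and 93 were tested. Of these, 2 rose and 1 fell, against 6.33% of all tested genes past the threshold, and 13 had an unadjusted p under 0.05, against 19.1%, with a median log2 fold change of 0.00 and 46 above 0. The median size of the log2 fold change was 0.11, beside 0.20 for all tested genes. The 10 lists had median log2 fold changes from -0.10, for the heat shock factors, to 0.11, for the chaperones of the endoplasmic reticulum.

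*Sqstm1* encodes p62, a receptor that brings ubiquitin-marked cargo to autophagy and a known NRF2 target. It had 586, 478, 421.5, 510.4 and 439.6 CPM in GFP control eyes and 766, 847, 823, 1012 and 884 CPM in Nrf2 eyes. The groups did not overlap. It rose by 0.82 on the log2 scale (SE 0.09, edgeR adjusted p = 0.00836), higher in 5 of 5 mice. It was the 1 of 9 autophagy partners past the threshold, where 6.33% of all tested genes passed. *Tax1bp1* and *Map1lc3b* of that list had -0.21 (adjusted p = 0.284) and 0.25 (adjusted p = 0.259). With immediate early genes as a covariate, where 88 of the 16362 tested genes passed beside 1036 in the main fit, *Sqstm1* no longer passed (adjusted p = 0.211). *Sqstm1* passed in the other 12 of 13 alternatives, where the lowest adjusted p was 2.1e-09, with DESeq2.

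*Sdf2l1*, a partner of the BiP chaperone in the endoplasmic reticulum, rose from a mean of 24.5 to 38.1 CPM, which is 0.63 on the log2 scale (SE 0.06, edgeR adjusted p = 0.0107) and 5 of 5 mice higher. It was the 1 of 12 chaperones of the endoplasmic reticulum past the threshold, where 6.33% of all tested genes passed. Of the 12, 11 had log2 fold changes above 0. *Hspa5*, the gene of BiP itself, had 0.10 (adjusted p = 0.723) and *Calr*, the gene of calreticulin, 0.18 (adjusted p = 0.403). *Sdf2l1* passed in 12 of 13 alternatives and missed with immediate early genes as a covariate (adjusted p = 0.15, the highest of the 13, the lowest being 3.07e-05 with DESeq2). With that covariate 88 of the 16362 tested genes passed, beside 1036 in the main fit.

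*Cdc37l1*, related to the kinase-specific HSP90 partner CDC37, fell from 61.8 to 43.7 CPM, which is -0.51 on the log2 scale (SE 0.05, edgeR adjusted p = 0.0152), lower in 5 of 5 mice. Its log2 fold change stayed between -0.54 and -0.44 over the 13 alternatives. It passed in 7 of them, and missed with no replicate block, with rod markers or immediate early genes as a covariate, and without mouse 2, 3 or 4. Over all 13 the adjusted p ran from 0.000522 (DESeq2) to 0.358 (edgeR). *Hsp90ab1*, the constitutive cytosolic HSP90, had means of 476 CPM in GFP control and 559 CPM in Nrf2 eyes, 0.21 on the log2 scale (SE 0.05, edgeR adjusted p = 0.311), with 5 of 5 mice higher, opposite in sign to *Hsp90aa1*. *Fkbp4*, an HSP90 partner of steroid receptors, had -0.33 (adjusted p = 0.0907), lower in 5 of 5 mice, and passed in 2 of 13 alternatives (adjusted p from 0.0382 to 0.771). The other 10 of the 13 tested genes of HSP90 and its co-chaperones did not pass with edgeR, where 6.33% of all tested genes did.

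*Hsf1*, the gene of the heat shock factor itself, had means of 39.6 CPM in GFP control and 37.5 CPM in Nrf2 eyes, -0.10 on the log2 scale (edgeR adjusted p = 0.661), and the factor's binding protein gene *Hsbp1* had 0.09 (adjusted p = 0.634). Among other HSP70 and HSP110 genes *Hspa4* had 0.19 (adjusted p = 0.541) and *Hspa4l* -0.27 (adjusted p = 0.294). The J-domain genes *Dnaja1* and *Dnaja2* had -0.27 (adjusted p = 0.219) and 0.12 (adjusted p = 0.519). None of the 5 heat shock factors and regulators, 6 HSP70 and HSP110 genes and 11 J-domain genes tested passed with edgeR or with DESeq2. Over all genes 6.33% passed with edgeR and 9.25% with DESeq2, so an absence of calls in lists this short tells little about them.

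Among HSP70 partners, *St13*, which stabilises the complex of HSP70 with its client, had -0.36 (adjusted p = 0.0878), lower in 5 of 5 mice, and *Bag1* had 0.09 (adjusted p = 0.723). *Bag5*, named after its values were seen, had -0.40 (edgeR adjusted p = 0.0645), lower in 5 of 5 mice. *St13* and *Bag5* passed, with lower levels, with DESeq2 (adjusted p = 0.0324 and 0.0289) and with muscle markers as a covariate (adjusted p = 0.0325 and 0.0424), and in none of the other 11 alternatives, over which the adjusted p reached 0.805 and 0.82. Of the other small heat shock genes *Cryaa* had -0.70 with an SE of 2.05 (edgeR adjusted p = 0.897), and *Hspb6* had -0.03 (adjusted p = 0.974). *Cct7* and *Cct6a*, of the chaperonin that folds actin and tubulin, had -0.06 (adjusted p = 0.814) and -0.05 (adjusted p = 0.866). The mitochondrial *Hspa9* and *Hspd1* had 0.20 (adjusted p = 0.497) and 0.11 (adjusted p = 0.700). With edgeR none of the 8 nucleotide exchange and BAG genes, 5 other small heat shock genes, 14 chaperonin and prefoldin genes and 10 mitochondrial chaperones tested passed. The share over all tested genes was 6.33%, so these short lists could hold few calls.

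**Figure D4:**
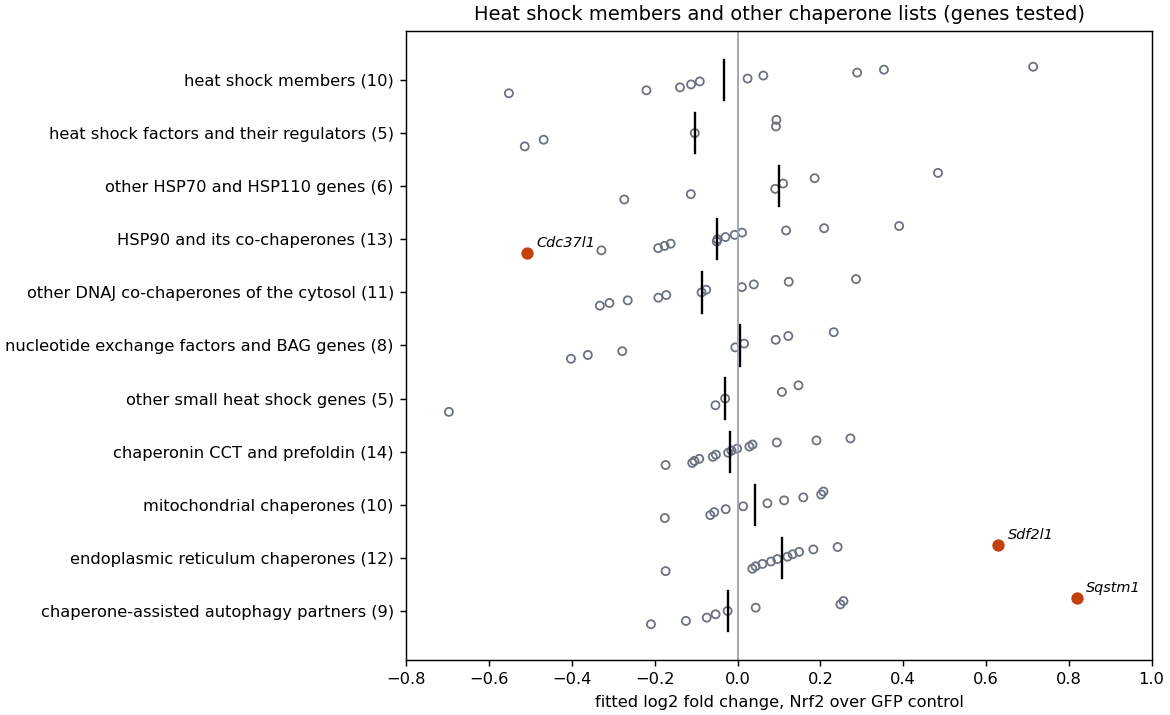
Fitted log2 fold change of Nrf2 over GFP control (x axis) for every tested gene of the 10 heat shock members and of 10 other lists by role (y axis, number tested in parentheses), with filled points for genes past an adjusted p of 0.05 and a black bar at the median of each list. *Sqstm1*, *Sdf2l1* and *Cdc37l1* are the 3 filled points, and none of the 10 members is filled.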

How the data were processed

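RNA of the RPE was sequenced from both eyes of 5 mice. The authors aligned reads with STAR to mm10 with Ensembl transcripts and counted them with featureCounts, and in parallel estimated counts with Salmon (version 0.8.2 per the submitters' processing notes). The sources used here do not state which table was deposited, how strand was set or what was filtered. The deposited values are raw counts per Ensembl gene, with no normalization, and 0 columns of other samples. Names and positions were taken from GENCODE M21 (GRCm38), which holds 47310 of the 47729 identifiers. Without the strand setting, reads of overlapping genes cannot be assigned with certainty.

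The eyes were compared in edgeR (4.0.16, under R 4.3.3; filterByExpr, TMM, quasi-likelihood F test blocked on mouse, Benjamini-Hochberg over 16362 genes holding 99.8% of counts, threshold 0.05). Adjusted p-values are from this test, or from the same test under the alternative named, unless DESeq2 (1.42.0) is named. CPM are counts per library total, and for SE each mouse's log2 CPM (prior count 2) in 1 eye was subtracted from that in the other, and the SD of the 5 results was divided by √5. The summed Hspa1a and Hspa1b counts were fitted as 1 gene in the same model. A count of 0 allows up to 3 counts, 0.11 to 0.244 CPM per library, and this covers counting error only. No libraries agreed within sampling noise (chi-square per degree of freedom at least 38.2). The code was tested on simulated data.

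The animal number in the labels pairs the eyes; deviations from the group means correlated within a mouse with r of 0.25, 0.71, 0.29, 0.19 and 0.20 in mice 1 to 5, against -0.42 to 0.28 between mice. Genes named were all 10 members, Nfe2l2 and, from each list by role, up to 5 genes past the threshold and, where fewer than 2 passed, also the 2 of highest mean CPM, besides the 3 genes most like each of 3 members or sums. The members and lists were chosen with earlier results of these data known, and no test over a list was made. Alternatives were DESeq2, RLE factors, no filter on low counts, no block, rod markers, muscle markers or immediate early genes as covariates, each mouse left out and, chosen after seeing the data, library totals with no scaling factors.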

Additional observations from a re-analysis of the deposited data

Results flagged for a closer look

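Of 22 groups of 5 eyes checked for a single value far from the others, 2 had one, where chance gives about 1.1. *Hsph1* in the GFP control eye of mouse 1 had a log2 CPM of 5.54 (47.1 CPM), with the other control eyes between 5.99 and 6.13, so that the gap to the nearest was 77% of the range. *Hspa8* in the Nrf2 eye of mouse 1 had a log2 CPM of 8.38 (319 CPM), with the other Nrf2 eyes between 9.03 and 9.11, a gap of 88.3% of the range.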

How the results depend on the processing

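Of 130 values (10 members under 13 alternatives), 116 kept their direction, 14 turned it and 5 newly passed the threshold; the cause was not tested. Among all genes 1812 were called by DESeq2, 1168 with no filter, 1266 with muscle markers, 539 with rod markers and 88 with immediate early genes as a covariate, and 584 to 857 with 1 mouse left out, beside 1036. With no replicate block, which ignores the pairing, 755 genes (687 shared) were called, 0 members and 2 genes of the other chaperone lists, and the summed Hspa1a and Hspa1b had -0.21. Of the members, 2 were called by DESeq2, 1 with no filter, 1 with muscle markers and 0 to 1 with a mouse left out. Of the other chaperone lists, 6 genes were called by DESeq2, 6 with muscle markers, 0 with immediate early genes and 2 to 3 with a mouse left out, beside 3. With muscle markers as a covariate the log2 fold change was 0.0219 for the summed Hspa1a and Hspa1b, 0.00712 for Hspa1a, 0.0271 for Hspa1b, 0.000542 for Hspb1 and -0.03 for Cryab. With immediate early genes Dnajb1 had -0.148, Bag3 0.133, Hsp90aa1 -0.331, Hspb1 -0.51, Hspa1a -0.223, Hspa1b -0.292, their sum -0.269 and Cryab 0.211. Without mouse 1 Hspa8 had -0.0509. With a mouse left out the sum ran from -0.35 to 0.121. With a mouse left out Hspa1a ran from -0.368 to 0.114, Hspa1b from -0.343 to 0.128, Hspb1 from -0.454 to 0.165, Dnajb1 from -0.0838, without mouse 1, to 0.264 and Cryab from -0.0552 to 0.183. Without mouse 3 Hspa1a had 0.0714, Hspa1b 0.128, Hspb1 0.158 and Cryab -0.0264, and without mouse 5 they had 0.114, 0.123, 0.165 and -0.0552. The 5 mice limit the precision, and the SE of Hspa1a, Hspa1b, Hspb1, Dnajb1 and Cryab exceeded their log2 fold changes in size.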
